A study of Mus musculus with 78 samples.

Results

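The genes described here encode voltage-gated sodium channels, voltage-gated calcium channels and the HCN channels, which open on hyperpolarization. They were chosen by symbol alone: every gene named as a sodium channel alpha or beta subunit (Scn), a calcium channel alpha1, alpha2delta or beta subunit (Cacna1, Cacna2d, Cacnb), Cacng1, Cacng6 or an HCN channel (Hcn), apart from Cacna1f and Cacna2d4, if at least 1 probe set of the array carried that symbol and no other. This gave 28 of 19301 named genes, each with 1 probe set: 7 sodium channel alpha subunits, 3 sodium channel beta subunits, 9 calcium channel alpha1 subunits, 3 alpha2delta subunits, 2 calcium channel beta subunits, 1 gamma subunit and 3 HCN channels. RefSeq lists 8 further genes with matching names, which are not analysed here. No measured value entered the choice.

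The genes were read on Affymetrix Mouse Gene 1.0 ST arrays of fluorescent cells sorted from the adult mouse retina, 200 cells per sample. There were 78 arrays in 26 sets of 3 biological replicates, from 22 transgenic lines. The lines either carried a bacterial artificial chromosome or transgene with EGFP, or a Cre driver crossed to the reporter Rosa26-LSL-RFP (PV-Cre was crossed to ThyStopY). The 3 photoreceptor lines were b2-Cre (rods, 3 sets), Chrnb4-EGFP and d4-Cre (both cones). The horizontal cell line was Gja10-Cre. The 4 bipolar lines were mGlur6-Cre (ON bipolar cells), Kcng4-CreERT2, Pcp2-EGFP (rod bipolar cells) and Lhx4-EGFP. The 9 amacrine lines were Arc-EGFP (3 sets), Igfbp2-EGFP, Rgs5-EGFP, Crh-Cre, ChAT-Cre (starburst cells), Chrna3-EGFP, Fam81a (labelled 6430514L14Rik-EGFP), Fbxo32-EGFP and Ier5-EGFP. The 4 ganglion cell lines were PV-Cre, Drd4-EGFP, Grik4-Cre and mOpn4-Cre (melanopsin cells). Csf2rb2-EGFP marked microglia. The Drd4 line is an EGFP line by name, while its arrays are described as RFP. All arrays were labelled with 1 mixed background of FVB/N-Swiss Webster and C57BL/6J, and the growth notes say that mice from the regional resource centers came from hybrids known to carry a recessive photoreceptor degeneration mutation before they were backcrossed. A sample holds the cells that the driver and the sorting gates passed, so the class name is that of the line's label.

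In a voltage-gated channel the alpha or alpha1 subunit forms the pore. Beta and alpha2delta subunits bring the pore to the membrane, hold it there and set its gating. Ganglion cells send action potentials down the optic nerve with sodium channels packed at the axon initial segment, many amacrine cells also spike, and photoreceptors and bipolar cells release transmitter in a graded way through L-type calcium channels at ribbon synapses. HCN channels carry a current that opposes hyperpolarization and shortens the response to light.

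The promoters of Scn1a and Scn2b, a sodium channel pore and a beta subunit, are shown because both genes were higher in ganglion cell lines. Each is the 250 bases before the start of the gene in RefSeq (GRCm38.p6), written 5 prime to 3 prime on the gene's strand. Capitals mark the GC box GGGCGG and the CCAAT box CCAAT on either strand.
Scn1a, promoter on chr2:66440838-66441087 (minus strand): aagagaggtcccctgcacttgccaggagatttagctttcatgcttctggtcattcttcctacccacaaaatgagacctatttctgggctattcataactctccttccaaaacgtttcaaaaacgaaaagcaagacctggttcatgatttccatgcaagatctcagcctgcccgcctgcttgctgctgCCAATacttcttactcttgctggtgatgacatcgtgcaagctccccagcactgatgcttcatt
Scn2b, promoter on chr9:45117626-45117875 (plus strand): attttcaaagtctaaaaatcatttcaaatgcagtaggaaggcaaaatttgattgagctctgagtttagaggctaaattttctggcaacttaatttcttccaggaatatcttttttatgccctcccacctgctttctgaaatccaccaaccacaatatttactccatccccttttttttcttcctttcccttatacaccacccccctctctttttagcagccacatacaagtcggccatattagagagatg
The promoter of Scn1a held 1 CCAAT box, 0 GC boxes and 4 CG pairs, and that of Scn2b held 0 of either box and 1 CG pair. For Cacna2d3 and Cacna2d1, which separated lines of amacrine cells, the windows of the promoter table precede starts that lie inside the span of the gene, and they are not printed. These windows held 4 GC boxes and 30 CG pairs for Cacna2d3 and 6 GC boxes and 36 CG pairs for Cacna2d1. The promoter table had 30 promoters for 22 of the 28 genes. A GC box stood in 12 of the 30 (40.0%), against 32.7% of all 32851 promoters of the same length. The CCAAT box stood in 6 of 30 (against 33.8% of all), the TATA box TATAAA in 2 (6.67% against 12.4%), and TAATCC, letters bound by photoreceptor homeobox factors, in 2 (6.67% against 6.25%). The RE1 site of the neuronal repressor REST was searched by its left arm TTCAGCACC (0 of 30, 0.301% of all promoters) and by its right arm (0 of 30, 0.42%). All motifs were searched on both strands. A match is a run of letters, and no use of it was measured.

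Most of the channel genes differed less between lines than other genes did in the median. A gene was tested if 1 set or more had a mean intensity above 9.01, the median of the table. Of the 28 genes, 23 passed, and Cacna1c, Scn4b, Scn7a, Scn8a and Scn11a stayed below it in all 26 sets and were not tested. The highest line exceeded the lowest by 1.19 units on the log2 scale in the median over the 23 genes, against 1.67 over all 15102 genes tested. This range was above 2 units in 4 of the 28 genes (Cacna2d3, Scn1a, Scn9a and Cacna2d1), between 1 and 2 in 12 and below 1 in 12. Only Cacna2d3 and Cacna1a had a set mean above 25. Intensities of different probe sets are not on 1 scale, so levels are compared between lines for 1 gene and not between genes.

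The replicate arrays of 5 lines were less alike than the others. Pairs of arrays of a set correlated over all genes at a median r of 0.918, but Chrnb4, Lhx4, Crh, Chrna3 and Drd4 each had a pair below 0.8 (lowest in Crh, 0.686). Of the 23 genes tested, 17 had their highest line mean in 1 of these 5 lines, against 39.4% of all genes tested, and 7 in Drd4 (6.66% of all genes) and 4 in Crh (13.0%). Markers of other cells were high in several lines, among them ganglion lines on which results below rest. The summed intensity of 5 Muller glia genes was 2598 in Drd4, 1474 in Grik4 and 1293 in Crh, against 174 to 435 in the other neuronal lines (3455 in microglia), and that of 4 endothelial genes was 706 in Grik4 and 261 in Drd4 against 23.4 to 57.8 in the other lines. Microglia genes (6) summed to 665 in Grik4 and 252 in mGluR6, against 38.1 to 110.3 in the other neuronal lines. Bipolar genes (6) summed to 439.5 in Drd4, 183 in Grik4 and 173 in Crh, against 38.2 to 63.8 in the other amacrine, ganglion and horizontal lines. Amacrine genes (7) summed to 655 in Gja10, 521 in Grik4 and 405 in Drd4, against 109 to 230 in the other lines outside the amacrine class. Pericyte and smooth muscle genes (8) summed to 379 in Rgs5, 236 in Grik4, 166 in Drd4 and 108 in Crh, against 55.4 to 81.8 in the other lines. The rod gene Gnat1 read 840 in Crh. The sum of 5 cone genes was 1048 in Chrna3, 358 in Lhx4, 163 in Drd4 and 96.7 in mGluR6. It was 1.98 to 41.2 in the other lines apart from the cone lines. Defining markers were present where the labels place them: Gnat1 read 1998 in b2 rods, the cone arrestin Arr3 1142 and 1427 in the cone lines, Lhx1 102 in Gja10, the melanopsin gene Opn4 149 in its line, and 6 ganglion cell genes summed to 2218 to 2499 in the 4 ganglion lines. The ganglion sum was 622 in Gja10 and 57.0 to 179 in the other lines, the highest of these in Crh. Chat was low in every line, with 9.16 in its own, while Slc18a3, the vesicular acetylcholine transporter, read 1527 there. The part of these other cells and of array quality in the results below was not tested, apart from the fits without the 5 lines. In sorted pools, fewer cells with a transcript and less of it per cell cannot be told apart.

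**Figure D1:**
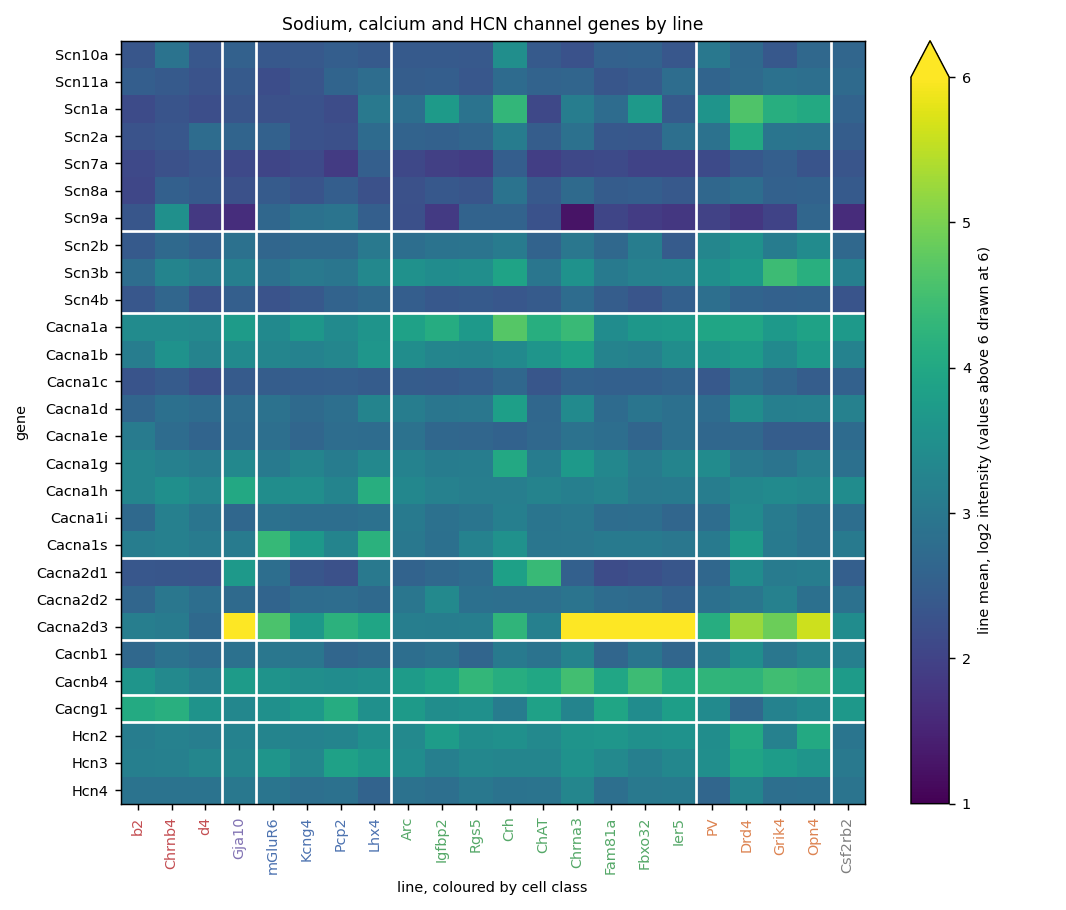
Line means of the 28 genes as log2 intensity (colour, values above 6 drawn at 6), with genes as rows grouped by subunit family and the 22 lines as columns coloured by class. Cacna2d3 stands out in Gja10 and in 4 of the 9 amacrine lines, and Scn1a is brighter in the 4 ganglion cell lines and Crh than in most others.

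Cacna2d3, an alpha2delta subunit, had the widest range of the 28 genes, 4.96 units between its highest and lowest line. In Gja10 horizontal cells the 3 arrays read 204.9, 198.5 and 211.1. The amacrine lines fell into separate ranges. Fbxo32 read 100.4, 224.9 and 131.2, Chrna3 104.4, 153.0 and 67.8, Ier5 96.0, 81.8 and 129.6, and Fam81a 94.6, 86.7 and 66.8. Arc read 7.48 to 10.1 over its 9 arrays, ChAT 8.71, 8.95 and 9.69, Rgs5 7.43, 8.58 and 10.6, and Igfbp2 10.7, 7.41 and 8.35. Crh lay between with 15.1, 20.7 and 22.9. The lowest array of the 4 high amacrine lines (66.8) was thus above the highest array of the 5 low ones (22.9), a split seen in the values and not set by the labels.

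Ganglion cell lines were intermediate for Cacna2d3. Opn4 read 74.3, 33.3 and 47.4, Drd4 54.2, 39.6 and 25.4, Grik4 17.4, 45.3 and 31.8, and PV 20.5, 17.0 and 15.2. The line means of the bipolar lines ran from 12.8 (Kcng4) to 24.0 (mGluR6), and those of b2, Chrnb4 and d4 were 8.81, 8.49 and 6.57, close to the 9.01 that marks the middle of the array. Arrays of the photoreceptor lines (5.95 to 13.7) lay below or within the range of the bipolar arrays (11.5 to 34.6). Microglia read 12.8, 7.66 and 12.8.

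**Figure D2:**
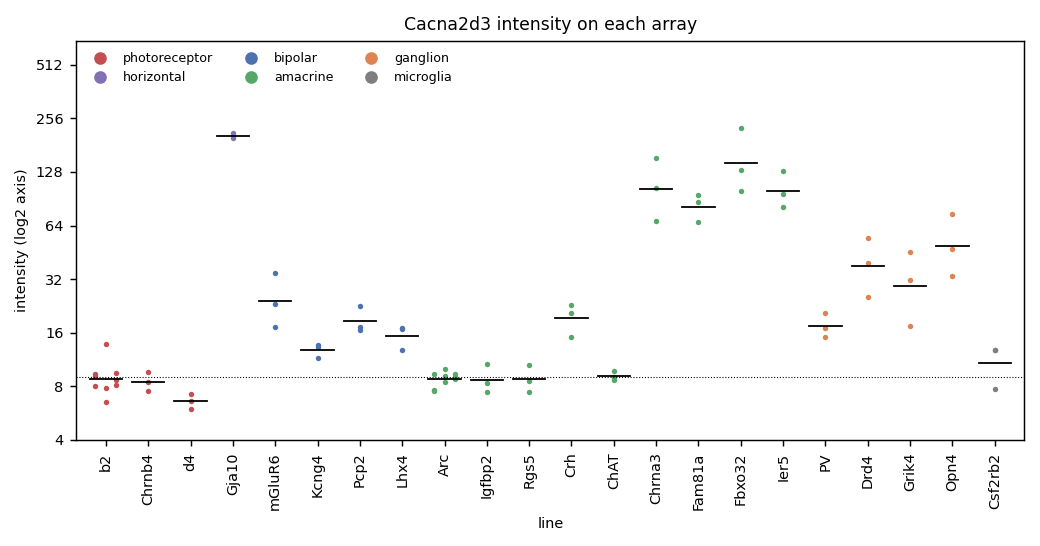
Intensity of Cacna2d3 (log2 axis) on each of the 78 arrays by line, points coloured by class, bars at line means and a dotted line at 9.01, the threshold for testing. Gja10 and the amacrine lines Chrna3, Fam81a, Fbxo32 and Ier5 lie at 66.8 or above, while the other 5 amacrine lines lie at 22.9 or below.

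Each of 20 lines was compared with its class, taken as the unweighted mean over the remaining lines, for all 15102 genes. A pair of gene and line counted as called if the difference was at least 1 unit and limma gave an adjusted p (Benjamini-Hochberg) under 0.05. Of 460 pairs of a channel gene and a line, 15 were called, a share of 3.26% against 4.21% of all pairs. 9 were higher (1.92% of all pairs) and 6 lower (2.29%). These 15 calls came from 5 genes, and 9 of them from Cacna2d3. In amacrine cells it was higher in Fbxo32 by 2.60 units (SE 0.22, adjusted p = 6.5e-13), Chrna3 by 2.06, Ier5 by 2.02 and Fam81a by 1.69. It was lower in Igfbp2, Arc, Rgs5 and ChAT, with differences of -1.95, -1.94, -1.94 and -1.88. The standard error was 0.22 in each of these lines but Arc, where it was 0.14. Because each line is set against lines of both kinds, these differences describe 1 split and not 8 separate ones. In none of the 8 were the arrays clear of all other amacrine arrays, since several lines share each range.

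The split of Cacna2d3 was also present within batches where a batch held both kinds of line. In batch 1, Arc and ChAT (7.48 to 9.69) were below Fam81a and Ier5 (66.8 to 129.6), and in batch 2, the second Arc set, which was taken as batch 2 without such a label, read 8.45 to 10.1, below Chrna3 (67.8 to 153.0). Batch 3 held low lines only, so that within it Igfbp2 and Rgs5 differed from the rest by -0.40 and -0.39 and were no longer called. Crh turned from 0.66 units below the other amacrine lines (adjusted p = 0.0147) to 1.13 above those of its batch (adjusted p = 0.00034, the lowest of its alternatives, which ranged up to 0.314). In ganglion cells, PV was 1.12 units below the others (SE 0.24, adjusted p = 0.00125). That call was lost with batch as a term (-1.01, adjusted p = 0.25, the highest of the alternatives, which began at 0.00099).

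Beside this split, Slc6a9, the glycine transporter of glycinergic amacrine cells, was higher in the same 4 lines, with means of 150.0 in Fbxo32, 120.3 in Fam81a, 48.8 in Ier5 and 36.2 in Chrna3, and 7.49 to 13.1 in the other 5 amacrine lines. The GABA-synthesis gene Gad1 ran the other way, at 89.3 to 236 in the 5 lines with low Cacna2d3 and 22.5 to 55.1 in the 4 lines with high Cacna2d3. Other genes of GABA neurons did not follow the split. Gad2 was 83.6 to 173 in Arc, Igfbp2, Rgs5 and Crh but 9.96 in ChAT, against 14.7 to 37.5 in the 4 high lines, and Slc32a1, the vesicular transporter of GABA and glycine, was 391 to 496 in the low lines and 396 to 575 in the high ones. These genes were picked from the amacrine markers after their values were seen, and no test of the split in them is given. Gja10 does not follow that pattern, with Slc6a9 at 7.99.

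Cacna2d1, the alpha2delta subunit of skeletal muscle and a target of gabapentin, was higher in ChAT than in every other line. The 3 ChAT arrays read 22.1, 20.5 and 19.7 and did not overlap with any other amacrine array, the nearest being Crh with 12.0, 14.0 and 17.1. Gja10 came next with 12.5, 12.9 and 13.7, and single arrays of Drd4 (16.2, 10.6, 7.25) and Opn4 (12.9, 7.90, 6.34) reached its values. Arc 3rd (12.0, 7.62, 5.52), Lhx4 (11.2, 8.61, 5.48) and Grik4 (5.80, 10.6, 9.98) had single arrays just below them. Apart from Drd4 (10.8), line means elsewhere ran from 4.47 (Fam81a) to 8.65 (Opn4), under the threshold of 9.01. ChAT exceeded the other amacrine lines by 1.73 units (SE 0.18, adjusted p = 3.8e-11), and by 2.16 within batch 1. Crh exceeded them by 1.12 (SE 0.18, adjusted p = 1.6e-06), a call lost as the difference came under 1 unit with batch as a term (0.63), with cyclic loess between arrays (0.90) and without replicate 3 (0.95). The third alpha2delta gene, Cacna2d2, ran from 5.92 (Ier5) to 10.2 (Igfbp2, with arrays of 8.84, 10.4 and 11.6), where it exceeded the other amacrine lines by 0.55 (SE 0.13, adjusted p = 0.0084), below the size of a call.

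Scn1a, the pore of the sodium channel Nav1.1, was higher in the ganglion cell lines. Drd4 read 23.2, 25.8 and 25.2, Grik4 12.3, 25.1 and 17.5, Opn4 21.1, 13.2 and 15.9, and PV 9.90, 9.88 and 17.7. All 12 ganglion arrays lay above the photoreceptor (3.89 to 5.88), horizontal (4.35 to 6.36) and bipolar arrays (3.73 to 8.90). Amacrine lines overlapped with them: Crh read 12.2, 28.4 and 22.7, Igfbp2 12.5, 16.1 and 11.4, and Fbxo32 27.3, 10.8 and 7.46, whereas ChAT read 5.08, 4.51 and 3.37. Class comparisons used the 22 line means, with a class set against the unweighted mean of the other neuronal classes and the same rule for calls. Ganglion lines exceeded the others by 1.58 units (SE 0.31, limma adjusted p = 0.0039), a mean of 17.1 against 5.70. This was the only call among the 23 genes in that comparison, where 3.54% of all genes were called.

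The call of Scn1a in ganglion cells rests on 4 lines. It held with batch as a term (1.44) and without the 5 lines of less similar arrays (1.51). It was lost within batch 3 alone (1.43, adjusted p = 0.079) and batch 1 alone (1.32, adjusted p = 0.12), while the alternatives ranged from 0.000575 to 0.12. Rbpms, a marker of ganglion cells, read 92.1 to 162 in these 4 lines and at most 22.3 elsewhere. Within the amacrine class, Scn1a was called higher in Crh by 1.37 units (SE 0.22, adjusted p = 2.1e-06), where Rbpms was 18.6, and lower in ChAT by 1.13 (SE 0.22, adjusted p = 0.00029). The 6 ganglion cell genes summed to 179 in Crh, against 57.0 to 168 in the other amacrine lines. The ChAT call was lost within batch 1 (-0.46), with batch as a term (-0.72), without Crh (-0.97) and without replicate 3 (-1.01, adjusted p = 0.063, in a range of 0.00025 to 0.63).

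4 more genes passed the adjusted p alone in ganglion lines, all higher and by less than 1 unit, so that 5 of 23 passed against 6.85% of all genes (5.02% higher). Cacnb4, a calcium channel beta subunit, was higher by 0.67 (SE 0.13, adjusted p = 0.0049). Its arrays overlapped: Opn4 read 19.6, 22.1 and 21.3 and Drd4 12.8, 21.5 and 25.2, with amacrine arrays from 8.18 to 32.7. Scn3b and Scn2b, sodium channel beta subunits, were higher by 0.78 (SE 0.18, adjusted p = 0.011) and 0.57 (SE 0.12, adjusted p = 0.009). Scn3b read 32.1, 18.1 and 17.1 in Grik4, 15.5, 19.1 and 18.9 in Opn4, 14.3, 11.0 and 13.0 in Drd4, and 13.7, 9.75 and 10.7 in PV. Grik4 and Opn4 lay above the photoreceptor, horizontal and bipolar arrays (5.10 to 13.4), while Drd4 and PV overlapped with them, and amacrine arrays reached 21.9 (Crh, line mean 14.9). Scn2b read 17.6, 10.7 and 7.97 in Drd4, 8.71, 13.5 and 10.1 in Opn4, 6.57, 12.5 and 11.6 in PV, and 6.79, 10.5 and 8.80 in Grik4. These overlapped with amacrine arrays (5.18 to 13.7) and with Lhx4, which reached 12.5 on 1 array. Scn3b no longer passed without Grik4 (0.62, adjusted p = 0.069) or without Opn4 (0.71, adjusted p = 0.051), in a range of 0.0039 to 0.60, and Scn2b no longer passed without Drd4 (0.51, adjusted p = 0.051), in a range of 0.0027 to 0.19.

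Scn2a, the pore of Nav1.2, was higher in ganglion lines by 0.65 (SE 0.19, adjusted p = 0.045). This rests on 1 array. Drd4 read 8.88, 8.92 and 55.4, while the other ganglion arrays lay between 5.85 and 8.95. Without the Drd4 line the difference was 0.37 (adjusted p = 0.25, range 0.019 to 0.38). The call of Scn2a in Drd4 against the other ganglion lines (1.12, SE 0.28, adjusted p = 0.0053) fell by the same array to 0.16 without replicate 3.

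**Figure D3:**
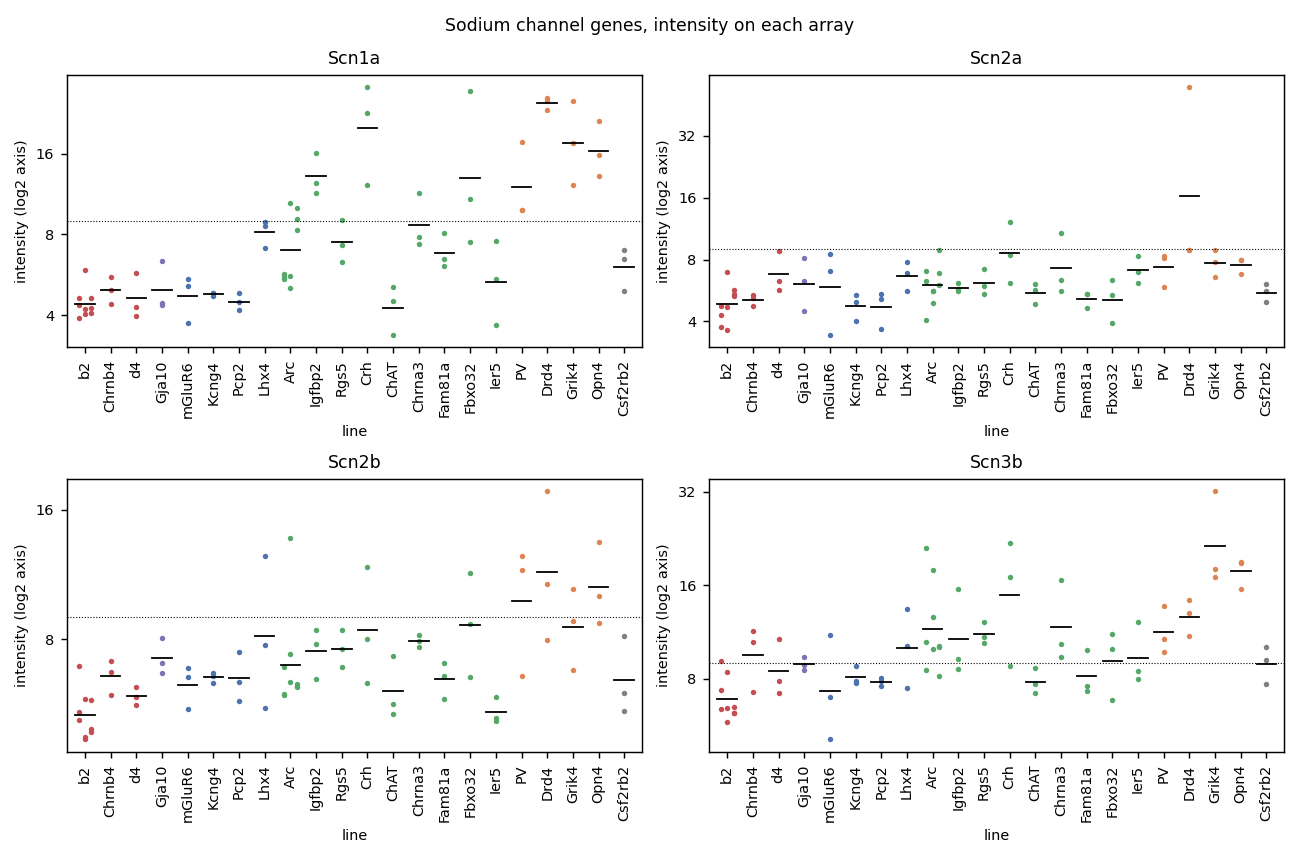
Intensity (log2 axis) of Scn1a, Scn2a, Scn2b and Scn3b on each array by line, coloured by class as in the plot of Cacna2d3, with bars at line means and a dotted line at 9.01. The 4 ganglion lines (orange) are high in Scn1a, and 1 Drd4 array at 55.4 carries the mean of Scn2a.

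Scn1a, Scn9a and Scn7a are direct neighbours on chromosome 2 with 0 protein-coding genes between them, and Scn2a lies 3 genes away. Of these neighbours Scn7a stayed under the threshold in all sets (line means 3.65 to 5.74). Scn2b and Scn4b are neighbours on chromosome 9, as are Scn10a and Scn11a.

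The other sodium channel genes were low. Scn9a, the pore of Nav1.7 in sensory neurons, was at or below 3.99 on 43 of 78 arrays, the level up to which values were taken as unordered. It was high on scattered single arrays. Chrnb4 read 105.8, 4.56 and 3.04, Kcng4 5.45, 3.39 and 21.2, and Lhx4 3.14, 2.88 and 20.3, so its line means give little. Scn10a was called higher in Crh (6.68, 16.6 and 12.2) than in other amacrine lines by 1.05 units (SE 0.19, adjusted p = 1.6e-05), and its other line means ran from 4.77 to 8.02, with single arrays of 12.1 in Chrnb4 and 11.2 in Drd4. That call was lost without replicate 2 (0.74), without replicate 3 (0.99) and with cyclic loess (0.73). Among the genes not tested, line means ran from 4.17 (b2) to 7.53 (Crh) for Scn8a, the pore of Nav1.6 at axon initial segments, from 4.84 (mGluR6) to 7.07 (PV) for Scn4b, and from 4.51 (mGluR6) to 7.29 (Grik4) for Scn11a.

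Among calcium channel pores, Cacna1s and Cacna1h differed between lines of bipolar and horizontal cells. Cacna1s, the L-type pore known from skeletal muscle, read 22.9, 22.0 and 16.6 in mGluR6, 21.3, 15.4 and 18.5 in Lhx4, 10.5, 12.8 and 15.3 in Kcng4, and 10.5, 8.24 and 10.04 in Pcp2. Outside bipolar lines it exceeded 15 on 1 array, of Drd4 (22.4, 9.31 and 11.1). Bipolar lines were higher by 0.75 (SE 0.18, adjusted p = 0.024), below the size asked for a call. By the full rule 0 of 23 genes were called (limma, 4 with an unadjusted p below 0.05), against 1.72% of all genes. It no longer passed without mGluR6 (0.59, adjusted p = 0.12) or without Lhx4 (0.64, adjusted p = 0.12), in a range of 0.0038 to 0.998. By the adjusted p alone 2.83% of all genes passed there.

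Cacna1h, the T-type pore Cav3.2, read 18.7, 15.7 and 18.2 in Lhx4 and 15.0, 16.8 and 17.1 in Gja10, and 7.34 to 13.9 on all other arrays, so that these 2 lines stood clear of the rest. Gja10 was 0.68 units (SE 0.21) above the other neuronal classes, with an adjusted p of 0.23. With Cacna2d3 (3.45 units, SE 1.25, adjusted p = 0.44) it was 1 of 2 genes with an unadjusted p below 0.05 in horizontal cells. Limma called 0 of 23 genes there, against 1.02% of all genes, with 1 line for the class. Within batch 3 alone Cacna2d3 was called in Gja10 (3.52, adjusted p = 0.010), while the alternatives ranged up to 0.56. That batch held no photoreceptor line and none of the amacrine lines with high Cacna2d3, so its reference differs from the main one. Amacrine lines were lower in Cacna1h by 0.40 (SE 0.10, adjusted p = 0.034, range 0.011 to 0.995, 2.24% of all genes passing), a difference that came to 0.0044 in the opposite direction within batch 1 alone. Batch 1 held neither Gja10 nor Lhx4. Lhx4 also exceeded the other bipolar lines in Cacna1h by 0.73 (SE 0.13, adjusted p = 0.00012) with no overlap of arrays.

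**Figure D4:**
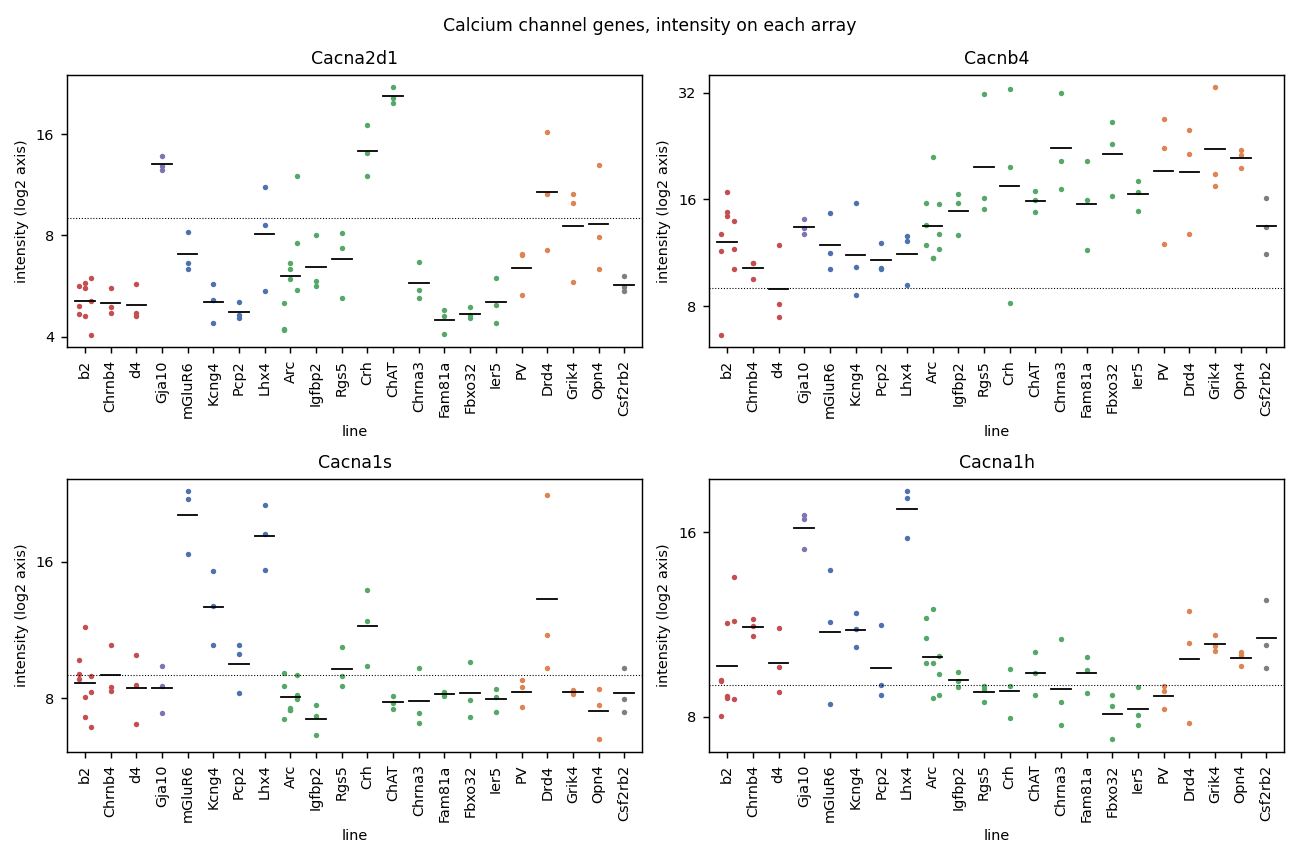
Intensity (log2 axis) of Cacna2d1, Cacnb4, Cacna1s and Cacna1h on each array by line, coloured by class, with bars at line means and a dotted line at 9.01. Cacna2d1 is high in ChAT (19.7 to 22.1), Cacna1s in mGluR6 and Lhx4, and Cacna1h in Lhx4 and Gja10.

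The remaining pores were flatter. Cacna1a, the P/Q-type pore of presynaptic terminals, was above the threshold in all 26 sets, from 10.3 in d4 to 25.8 in Crh (22.7, 29.2 and 25.9), where it was 0.82 above the other amacrine lines (SE 0.15, adjusted p = 1.3e-05). Crh also had the highest means of Cacna1d, an L-type pore (10.8, 18.1 and 14.3, against 6.17 to 10.9 in other lines), and Cacna1g, a T-type pore (12.7, 22.8 and 15.0, against 7.19 to 13.1). Crh exceeded the other amacrine lines by 0.86 and 0.79 in these genes, both passing the adjusted p and neither reaching 1 unit. The line means of Cacna1b, the N-type pore, ran from 8.65 (b2) to 14.3 (Chrna3), those of Cacna1e, the R-type pore, from 5.53 (Opn4) to 8.44 (b2), and those of Cacna1i, a T-type pore, from 6.29 (Ier5) to 10.5 (Drd4). Cacna1c, not tested, ran from 4.65 (d4) to 7.07 (Drd4). Of the 47 pairs of gene and line that passed the adjusted p alone (8.04% of all pairs passed), 25 lay in the 5 lines with less similar arrays, near the 51.4% of passing pairs that all genes had there.

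Of the other calcium channel subunits, Cacnb4 was lower in photoreceptor lines by 0.55 (SE 0.15, adjusted p = 0.023, 10.3% of all genes passing), with d4 at 8.09, 11.9 and 7.48 and Chrnb4 at 10.6, 9.53 and 10.6. The b2 arrays, from 6.64 to 16.8, overlapped with the other classes. The difference no longer passed without d4 (-0.44, adjusted p = 0.11) or without Chrnb4 (-0.54, adjusted p = 0.087). With batch as a term it did not pass either (-0.42, adjusted p = 0.10, range 0.0093 to 0.17). That fit also leaves out d4 and Fbxo32, which have no batch label, so batch and the loss of these lines cannot be told apart. Cacnb1 ran from 6.22 (Rgs5) to 11.1 (Drd4), and Cacng1 from 6.47 (Drd4) to 17.8 (Chrnb4). Cacng1 was 0.49 higher in photoreceptors (SE 0.19, adjusted p = 0.12).

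The HCN genes differed by at most 1.09 units between lines, and none of them passed the test in any class. Against other lines of a class, Hcn4 passed in Chrna3 (0.36) and Drd4 (0.47) and Hcn2 in Grik4 (-0.64), none of them called. Hcn2 was highest in Drd4 (19.3, 14.3 and 15.8) and Opn4 (17.2, 12.1 and 20.9) and lowest in microglia (8.04, 10.3 and 5.47). In ganglion lines it was 0.38 higher (SE 0.13, adjusted p = 0.085). Hcn3 ranged over line means of 8.17 (Csf2rb2) to 15.1 (Drd4), with Pcp2 rod bipolar cells at 15.4, 13.2 and 15.4, and Hcn4 over 6.02 (Lhx4) to 9.76 (Chrna3). Both cone lines and the rods were near the threshold in Hcn2 (line means 8.70 to 9.19).

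Over all classes, few channel genes separated photoreceptors, amacrine cells or microglia from the rest. In photoreceptors limma called 0 of 23 genes (6 with an unadjusted p below 0.05, 6.51% of all genes called). Cacna2d3 was lower there by 2.42 units (SE 0.80) at an adjusted p of 0.059. The fit shares 1 spread between lines over all classes. For Cacna2d3 the standard deviation of line means was 0.23 in photoreceptor, 0.39 in bipolar, 0.64 in ganglion and 1.81 in amacrine lines. Cacna2d3 was called in photoreceptors with batch as a term (-2.64, adjusted p = 0.046) and without ChAT (-2.47, adjusted p = 0.048), in a range of 0.046 to 0.61. The fit with batch left out d4 and Fbxo32. In amacrine lines 0 were called (3 unadjusted, 1.12% of all genes), and in microglia 0 (0 unadjusted, 9.32% of all genes), where 1 line stood for the class. Rods against Chrnb4 cones within batch 1 gave 0 calls of 23 (2 unadjusted, 8.14% of all genes). The nearest was Cacna2d2, which read 4.86, 6.73 and 5.38 in rods and 7.02, 8.58 and 8.19 in cones, a difference of -0.50 (SE 0.18, adjusted p = 0.063).

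**Figure D5:**
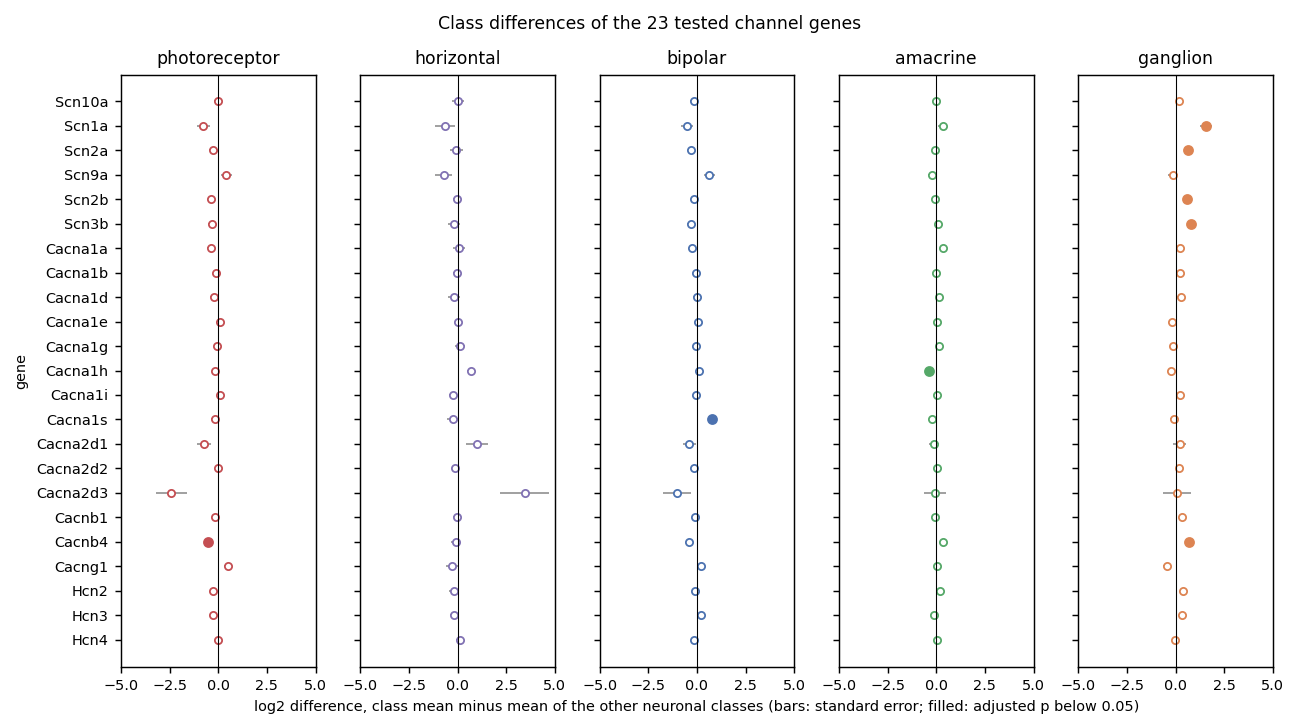
Differences of the 23 tested genes between each neuronal class and the mean of the others (log2 units, x axis) with standard errors, filled where the limma adjusted p was below 0.05. Filled points are 5 in ganglion cells and 1 each in photoreceptors (Cacnb4), bipolar cells (Cacna1s) and amacrine cells (Cacna1h), and Cacna2d3 has the widest errors.

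The repeated sets show how far these genes moved when a line was measured again. Over the 6 pairs of repeated sets of Arc and b2, limma called 0 of 138 pairs of gene and comparison (11 with an unadjusted p below 0.05), against 0.98% over all genes. The largest difference of a channel gene was 0.84 units, of Cacna2d1 between Arc 1st (4.21, 5.02 and 4.195) and Arc 3rd (12.0, 7.62 and 5.52). Scn9a moved by 0.78 and 0.79 between sets of b2. Differences of this size are as large as several class differences above. Cacna2d3 had means of 8.08, 9.18 and 9.04 in the 3 sets of Arc.

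Genes whose products work with these channels were read from 4 lists, drawn up with earlier results of these data known. Of 12 tested partners of sodium channels at the initial segment, 3 were higher in ganglion lines, where 5.02% of all genes were: Fgf12 by 1.60 (SE 0.36, adjusted p = 0.011), Fgf14 by 0.83 (adjusted p = 0.028) and Cntn1 by 0.79 (adjusted p = 0.017). The first pair encode intracellular factors that bind sodium channels, and Cntn1 is an adhesion protein. The list's median difference was 0.33 against 0.03 over all genes. Fgf12 was also lower in photoreceptors (-1.87, SE 0.40, adjusted p = 0.0049), with arrays from 10.1 to 32.7 there and 88.3 to 225 in ganglion lines. It overlapped with the ganglion lines in Gja10 (91.2, 136 and 116), Crh (104, 142 and 148) and Arc (62.6 to 162).

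Of 13 tested calcium channel partners, 2 passed in each of photoreceptor, bipolar and amacrine lines, against 10.3%, 2.83% and 2.24% of all genes. Cabp4, a calcium sensor of photoreceptor synapses, was higher in photoreceptors by 1.76 (SE 0.33, adjusted p = 0.002), and Cabp1 lower (-1.80, SE 0.50, adjusted p = 0.025). Cabp5 and Cabp2 were higher in bipolar lines by 4.91 (SE 0.69, adjusted p = 0.0004) and 2.05 (SE 0.36, adjusted p = 0.0026). In amacrine lines Stac2 was higher by 1.15 and Cabp5 lower (-2.13), and in microglia Rrad alone passed, higher by 1.57 (10.7% of all genes passed). In ganglion and horizontal lines 0 of 13 passed, against 6.85% and 1.1% of all genes. Of 4 tested HCN partners, 1 passed in photoreceptors (10.3% of all genes). Pex5l, which anchors HCN channels, was higher there by 1.35 (SE 0.32, adjusted p = 0.0099), with line means of 36.2 in b2, 15.6 in Chrnb4 and 17.3 in d4. Kcne2, an accessory subunit reported for HCN channels, did not pass in any class, and its values are given because they split within classes. It read 752, 498 and 661 in Chrnb4 and 934, 1031 and 969 in d4, but at most 15.2 in b2, and 361, 377 and 354 in mGluR6 and 277, 242 and 323 in Pcp2, but at most 20.3 in Kcng4 and 5.002 in Lhx4. On all other arrays it was at 36.6 or below. It was named after its values were seen, and no test of these splits is given. Of 4 tested genes of the NALCN leak channel, Fam155a was lower in photoreceptors (-0.93, adjusted p = 0.029) and higher in amacrine lines by 0.73 (adjusted p = 0.047).

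Of the genes left out of the selection, Cacna1f, the L-type pore of ribbon synapses, passed in no class (photoreceptors 2.42, adjusted p = 0.051), with line means of 16.2 to 69.6 in photoreceptor and bipolar lines and at most 13.3 elsewhere, in Drd4, whose arrays read 113.6, 2.98 and 7.03. Cacna2d4 was higher in bipolar lines by 2.36 (SE 0.27, adjusted p = 6.8e-05), with line means of 51.5 to 114 there, and lower in amacrine lines (-0.87, adjusted p = 0.039), while its 20.3 to 28.3 in photoreceptor lines overlapped with Drd4 (26.5), Crh (23.7) and Grik4 (22.5).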

How the data were processed

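Sorted retinal cells of 22 mouse lines were hybridized to 78 arrays. The authors deposited 1 linear intensity per probe set and array, from 0.0238 to 5770, with the same sorted values on every array, as quantile normalization gives. RMA, oligo, R 2.11.1 and the build mm9 are named in the submitters' processing notes, without settings. Here log2 was taken. Of 22347 probe sets, 19446 carry 1 symbol in the probe table, 735 several and 2166 none. For a gene with several, the probe set with the highest mean was kept. A gene was tested if 1 set mean exceeded 9.01 (15102 of 19301 genes). Values up to 3.99 were taken as unordered. On 70 of the 78 arrays, at least 10 of the lowest values followed the order of the probe set identifiers. The level is the highest at which such a run ended, so it ended lower on other arrays.

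limma 3.58.1 (R 4.3.3, moderated with a trend) was fitted to 22 line means for classes and to 78 arrays with 26 set means for lines, repeated sets, and rods against cones. P-values were adjusted by Benjamini-Hochberg over all genes tested in a comparison. Those of lines cover the spread between arrays of a set, and those of classes the spread between lines. Each gene had 1 such spread, shared by all sets or by all classes. The scatter of a single line or class did not by itself set its standard error. The number of arrays limits the precision. Batch labels 1, 2 and 3 held 24, 12 and 33 arrays, and 9 arrays had none, of which Arc 2nd was taken as batch 2. The others, d4 and Fbxo32, were left out of every fit with batch as a term or within batches. Replicate numbers were checked as pairs and not used as such, since the residuals of arrays with 1 number had a mean correlation of 0.00021. The fits were also run on simulated data. For classes, the simulated spread between lines was capped at its median over genes. That run does not test genes that vary more between lines.

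Genes, lists and comparisons were chosen with earlier results of these data known. Named were called genes, for lines those without overlap of arrays (Cacna2d1 in ChAT). Other genes are given by range, or were named after their values were seen. Alternatives: the floor, no filter, the mean of probe sets, cyclic loess, no trend, further probe sets, microglia in the reference, batch as a term, within batches, and each replicate or line left out.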

Additional observations from a re-analysis of the deposited data

Results flagged for a closer look

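Within the bipolar, amacrine and ganglion classes, 84 groups of line means were examined for a line whose gap to its nearest neighbour took up an unusual share of the group's range, a criterion that chance meets in about 5% of groups. It was met 9 times. In bipolar lines, Lhx4 was highest in Hcn2 (11.3, next line 9.52), Scn1a (8.16, next 4.81) and Scn2b (8.13, next 6.53). In amacrine lines, Crh was highest in Scn10a (11.1, next 5.91) and Scn7a (5.61, next 4.38), Chrna3 in Hcn4 (9.76, next 8.203) and Scn4b (6.82, next 5.76), and Igfbp2 in Cacna2d2 (10.2, next 7.79). In ganglion lines, Drd4 was highest in Scn2a (16.4, next 7.71). Scn7a and Scn4b had no set mean above 9.01 and were not tested, and Scn7a was at or below 3.99 on 24 of 78 arrays. In 8 of the 9 the line was 1 of the 5 whose arrays were less alike, and the part of array quality in them was not tested.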

How the results depend on the processing

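Of the 25 named differences, tried in 545 combinations with an alternative, 467 kept their direction and side of the threshold, 74 fell below it, 3 rose above it and 1 reversed (Cacna1h in amacrine lines, 0.0044 within batch 1 alone). Batch 1 held no horizontal line and, of the bipolar lines, Pcp2 alone, so Gja10 and Lhx4 were not in that reference. The cause was not tested. Cacna2d3 in Crh, which is not among these 25 because it was not called, also turned, from -0.66 to 1.13 within its batch. The counts of calls moved as follows. For photoreceptors the count rose from 0 to 1 with batch as a term, and ranged from 0 to 1 with a line left out. Within batch 3 alone, 1 gene (Cacna2d3) was called in horizontal, bipolar, amacrine and microglia lines each and 0 in ganglion lines, and 0 were called in ganglion lines within batch 1 alone. Batch 3 held no photoreceptor line and none of the amacrine lines with high Cacna2d3, so these calls use another reference than the main fit. Lines within a class gave 13 to 16 calls without a replicate, 11 within batch, 11 without Crh and 10 with batch as a term. Fits with batch as a term or within batches held neither d4 nor Fbxo32. The replicate block left 15 calls for lines, 0 for rods against cones and 0 for repeated sets. The fits within batch 1, within each line's batch and without Crh were added after seeing the data. Cyclic loess moved the median of all genes by 0.07. Low intensity limits 5 genes to no test.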
